A study of Mus musculus with 6 samples.

Results

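The integrated stress response is the program by which cells under nutrient, heme, protein folding or mitochondrial stress slow general translation and make the transcription factor ATF4. Its 10 regulators described here were taken from the deposited expression table by gene symbol, out of 18518 symbols in all. They are 6 transcription factor genes (Atf4, Atf3, Atf5, Ddit3, Cebpb and Cebpg) and 4 effector genes (Trib3, Chac1, Nupr1 and Sesn2). They were chosen by their difference in FPKM between the 2 genotypes in these same libraries, so their levels and differences are descriptions and carry no p-value.

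The cells were E14Tg2A mouse embryonic stem cells, an established line. BACH1-KO cells (3 libraries) had been made with CRISPR/Cas9 guides on the LentiCRISPR V2 plasmid, by transient transfection, puromycin selection and sorting of single-cell clones, and WT cells of the same line (3 libraries) served as controls. Both genotypes were kept for 2 days in medium with serum and 200 units/ml of murine LIF, and libraries were made from total RNA. The labels do not say how many knockout clones there are, whether the WT cells went through selection, or whether the libraries are separate cultures, so the spread between libraries may be technical. The knockout titles all go on with the same digit after the genotype, the WT titles only in part, and some title endings recur in both genotypes. Whether these mark a single clone or a shared day is not stated, and the table's columns cannot be matched to titles, so a batch could not be separated from the genotype. The targeted gene, Bach1, had 10.5, 10.4 and 10.4 FPKM in the libraries labelled BACH1-KO, against 7.97, 8.39 and 8.47 FPKM in WT libraries, so its transcript was not lower in the knockout. FPKM sums reads over the whole gene and the labels do not place the edit, so this level neither shows nor excludes a disrupted coding sequence, and BACH1-KO below is the labelled genotype.

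Stress kinases phosphorylate the initiation factor eIF2, which lowers translation of most messages while the ATF4 message, which carries short upstream reading frames, is translated more. ATF4 binds DNA as a dimer, often with a C/EBP protein, and activates genes of amino acid supply, glutathione turnover and cell fate. BACH1 is a heme-regulated repressor that binds Maf recognition elements together with small MAF proteins.

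The promoters of 6 of the genes are printed because ATF4 and its C/EBP partners act through short promoter elements. Each run covers bases 1 to 280 of a RefSeq promoter window of build GRCm38.p6, the assembly also called mm10, from 250 bases before the annotated start to 30 after it. Capitals mark a match to any of 4 motifs searched on both strands. These were the C/EBP-ATF response element core TGATGNAA, the cAMP response element TGACGTNA, the AP-1 element TGANTCA and the longer Maf recognition element, which contains an AP-1 element. The Atf4 window holds no match and is shown as the gene at the head of the pathway.
Chac1 promoter, chr2:119350992-119351271, plus strand: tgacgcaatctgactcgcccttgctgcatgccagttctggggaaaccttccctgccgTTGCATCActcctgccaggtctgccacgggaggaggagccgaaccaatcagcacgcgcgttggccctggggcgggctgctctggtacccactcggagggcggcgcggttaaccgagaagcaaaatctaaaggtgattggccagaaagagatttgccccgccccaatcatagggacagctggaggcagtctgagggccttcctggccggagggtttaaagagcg
Nupr1 promoter, chr7:126625441-126625720, minus strand: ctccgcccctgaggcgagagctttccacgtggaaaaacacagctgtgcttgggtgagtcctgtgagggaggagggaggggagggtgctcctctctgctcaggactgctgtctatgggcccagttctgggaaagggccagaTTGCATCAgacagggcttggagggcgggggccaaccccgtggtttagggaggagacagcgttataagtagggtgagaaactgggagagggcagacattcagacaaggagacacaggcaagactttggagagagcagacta
Atf3 promoter, chr1:191183304-191183583, minus strand: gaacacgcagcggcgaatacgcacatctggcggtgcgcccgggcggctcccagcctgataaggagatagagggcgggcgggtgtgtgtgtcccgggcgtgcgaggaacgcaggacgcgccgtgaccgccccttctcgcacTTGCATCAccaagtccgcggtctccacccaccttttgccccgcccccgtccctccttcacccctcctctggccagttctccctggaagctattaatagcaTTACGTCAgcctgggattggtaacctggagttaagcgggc
Trib3 promoter, chr2:152344031-152344310, minus strand: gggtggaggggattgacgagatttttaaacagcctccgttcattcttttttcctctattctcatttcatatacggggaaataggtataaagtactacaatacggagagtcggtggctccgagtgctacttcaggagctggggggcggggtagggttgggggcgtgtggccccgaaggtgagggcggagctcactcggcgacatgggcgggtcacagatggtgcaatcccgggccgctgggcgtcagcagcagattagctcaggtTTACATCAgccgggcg
Ddit3 promoter, chr10:127290543-127290822, plus strand: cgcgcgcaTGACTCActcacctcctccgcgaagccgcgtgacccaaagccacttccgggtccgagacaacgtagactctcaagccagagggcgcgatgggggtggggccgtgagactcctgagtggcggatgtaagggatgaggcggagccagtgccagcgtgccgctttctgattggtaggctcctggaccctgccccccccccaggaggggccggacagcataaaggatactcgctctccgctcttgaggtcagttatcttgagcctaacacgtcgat
Atf4 promoter, chr15:80254934-80255213, plus strand: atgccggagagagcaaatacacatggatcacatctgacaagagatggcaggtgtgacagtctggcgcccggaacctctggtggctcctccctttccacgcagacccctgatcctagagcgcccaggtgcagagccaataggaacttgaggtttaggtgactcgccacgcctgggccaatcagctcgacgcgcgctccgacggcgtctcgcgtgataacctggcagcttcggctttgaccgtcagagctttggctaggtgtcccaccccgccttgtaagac

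The C/EBP-ATF core lay in the windows of 4 of the 10 genes, Chac1, Nupr1, Atf3 and Trib3, and in 3.97% of all 32851 RefSeq windows, each taken to 50 bases after the start. It read as TTGCATCA in Chac1, starting 193 bases before the annotated start, and in Nupr1 and Atf3, starting 110 bases before it in both. In Trib3 it read as TTACATCA and began at base 15 of the transcript. Atf3 also held a cAMP response element, found in 2.93% of windows, and Ddit3 an AP-1 element, found in 7.81%. The Maf recognition element was found in 0 of the 10 genes and in 0.155% of windows. A missing match says only that these letters are not in this window.

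The leader, the stretch of a transcript before its coding start, differed among the 10 genes in the GENCODE annotation of the same build. It was 594 bases long with 3 upstream ATG triplets in Atf4, 373 bases with 2 in Atf5, and 186 bases with 2 in Ddit3. Cebpb, Trib3 and Chac1 had 0 upstream ATG triplets, and the other 7 genes had at least 1. Over 16445 genes with an annotated leader, 54% had at least 1 and the median leader was 169 bases. RNA sequencing measures these transcripts and not how often they were translated.

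Values are FPKM, which corrects fragment numbers for transcript length and library size, so levels can be set against each other between genes. All 10 genes had every BACH1-KO library above every WT library, as did 38.4% of the 12187 genes that averaged 1 FPKM or more and were tested. The libraries of the genotypes did not overlap, in either direction, for 79.3% of tested genes. All 10 passed that filter, Atf3 through its BACH1-KO level alone. By limma with Benjamini-Hochberg adjustment over the 12187 genes, 37.3% passed an adjusted p of 0.05 with higher levels in BACH1-KO, 39.7% with lower levels and 77% in either direction. All 10 regulators were among the higher ones, which the way they were chosen already fixed. In bulk RNA, fewer cells of a type and less RNA per cell cannot be told apart.

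Atf4 encodes the basic leucine zipper factor at the centre of the response (chromosome 15, 80255184 to 80257545, plus strand). It had 432, 409.7 and 416 FPKM in BACH1-KO libraries, against 98.0, 91.0 and 86.3 FPKM in WT libraries. The lowest BACH1-KO library stood 4.18 times above the highest WT library. Every log2 fold change here is the mean log2(FPKM + 1) of BACH1-KO less that of WT, and for Atf4 it was 2.18 (SE 0.05). Atf4 was the most abundant of the 10 in both genotypes.

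Ddit3 encodes CHOP, a C/EBP family member linked to cell death under lasting stress (chromosome 10, 127290793 to 127296291, plus strand). It had 129.7, 136 and 132 FPKM in BACH1-KO libraries, against 26.4, 23.2 and 22.1 FPKM in WT libraries. The ratio of means was 5.55 and the log2 fold change 2.43 (SE 0.06). Its level was thus the second highest of the transcription factor genes in both genotypes, and its groups lay far apart.

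Atf3, a stress-induced factor that represses many of its targets, was nearly silent in WT cells (chromosome 1, 191170296 to 191183333, minus strand). It had 13.6, 14.5 and 15.5 FPKM in BACH1-KO libraries, against 0.499, 0.660 and 0.470 FPKM in WT libraries. The ratio of means was 26.8, and the log2 fold change of 3.33 (SE 0.08) understates it because 1 FPKM was added to such low values. With 0.1 FPKM added in its place the log2 fold change was 4.52.

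Atf5, an ATF4-related factor tied to mitochondrial stress, had 19.0, 18.5 and 20.1 FPKM in BACH1-KO libraries, against 5.75, 4.87 and 5.47 FPKM in WT libraries (chromosome 7, 44812256 to 44816658, minus strand). The ratio of means was 3.58 and the log2 fold change 1.67 (SE 0.06). Its libraries varied by 4.07% in BACH1-KO and 8.48% in WT (coefficient of variation) and did not overlap between the genotypes.

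The C/EBP genes Cebpb and Cebpg, whose proteins pair with ATF4, differed between the genotypes to unequal degrees. Cebpb had 16.4, 13.1 and 15.9 FPKM in BACH1-KO libraries, against 2.81, 2.64 and 2.45 FPKM in WT libraries (chromosome 2, 167688915 to 167690432, plus strand). Its ratio of means was 5.75, and its BACH1-KO libraries had the widest relative spread of the 10 genes, a coefficient of variation of 11.8%. Cebpg had 18.05, 18.9 and 19.0 FPKM in BACH1-KO libraries, against 8.45, 10.2 and 9.27 FPKM in WT libraries (chromosome 7, 35046422 to 35056566, minus strand). Its ratio of means, 2.00, was the smallest of the 10, and its log2 fold change was 0.93 (SE 0.07). The log2 fold change of Cebpb was 2.15 (SE 0.09).

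**Figure D1:**
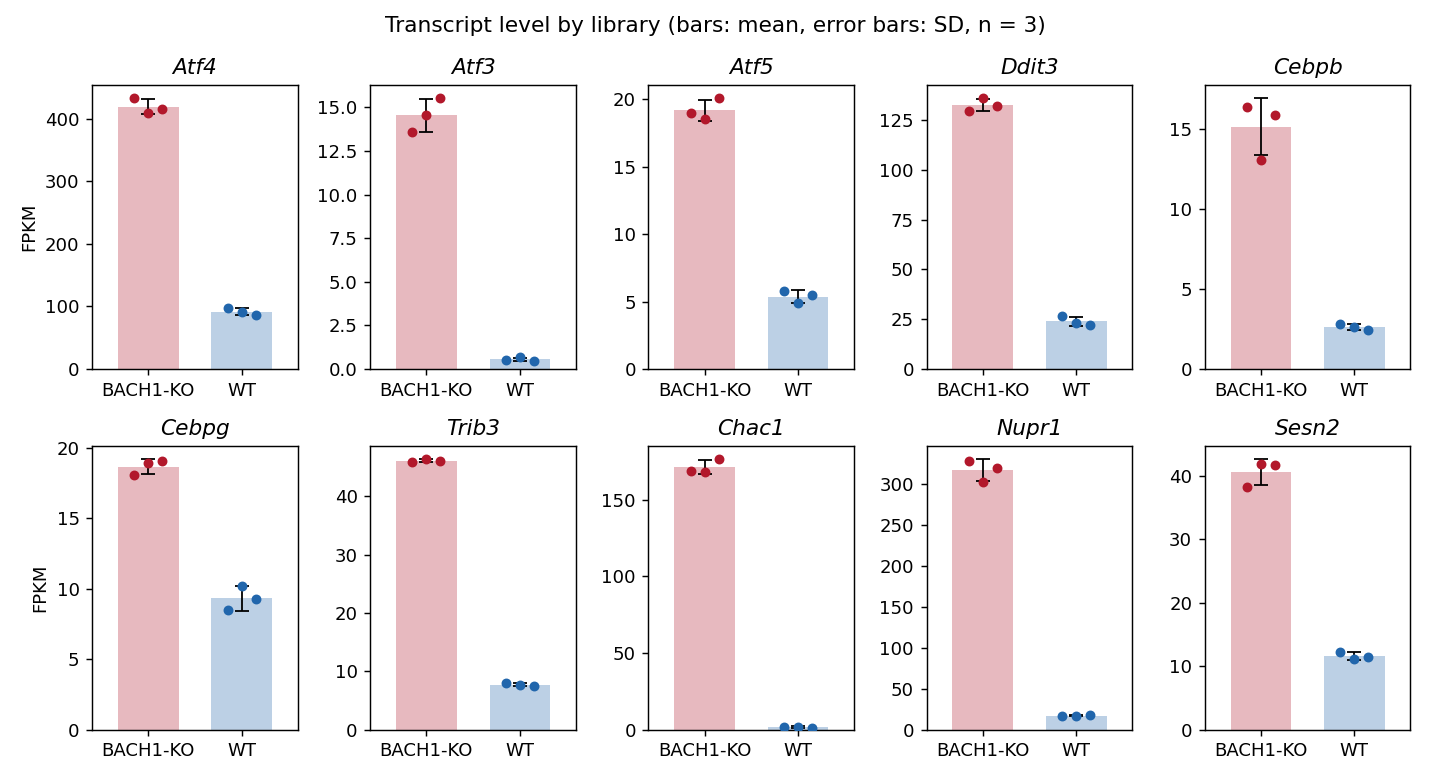
Level of each of the 10 regulators in FPKM (linear axes from 0, a scale of its own for each gene), with BACH1-KO on the left and WT on the right. Points are libraries, bars means and error bars SD (n = 3 per genotype). In each panel all BACH1-KO points lie above all WT points, from Chac1 with means of 171 and 1.64 FPKM to Cebpg with 18.7 and 9.31 FPKM.

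Among the effectors, Chac1 had the widest difference. It encodes a glutathione-degrading enzyme (chromosome 2, 119351242 to 119354326, plus strand) and had 169, 168 and 176 FPKM in BACH1-KO libraries, against 1.93, 1.93 and 1.05 FPKM in WT libraries. Its log2 fold change of 6.05 (SE 0.13) ranked 3 among the 12187 tested genes. The WT libraries varied by 30.9% (coefficient of variation) at this low level, and the BACH1-KO libraries by 2.65%.

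Nupr1, a small chromatin-associated stress protein gene, was the second most abundant of the 10 in BACH1-KO cells (chromosome 7, 126623246 to 126625470, minus strand). It had 329, 303 and 319.9 FPKM in BACH1-KO libraries, against 16.9, 16.1 and 17.9 FPKM in WT libraries. The ratio of means was 18.7 and the log2 fold change 4.15 (SE 0.05), rank 25 of the tested genes.

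Trib3, a pseudokinase gene whose product binds ATF4 and AKT, had 45.8, 46.4 and 46.1 FPKM in BACH1-KO libraries, against 7.93, 7.74 and 7.43 FPKM in WT libraries (chromosome 2, 152337425 to 152344060, minus strand). The ratio of means was 5.98, and the BACH1-KO libraries agreed within a coefficient of variation of 0.587%. Its log2 fold change was 2.44 (SE 0.04).

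Sesn2, which encodes the leucine-sensing sestrin that restrains mTORC1 through the GATOR complexes, had 38.2, 41.8 and 41.7 FPKM in BACH1-KO libraries, against 12.3, 11.2 and 11.4 FPKM in WT libraries (chromosome 4, 132492804 to 132510456, minus strand). The ratio of means was 3.49 and the log2 fold change 1.72 (SE 0.05). The lowest BACH1-KO library was 3.11 times the highest WT library.

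The median log2 fold change of the 10 genes was 2.31, with a range of 0.93 to 6.05, and that of all tested genes was -0.01. Ranked by log2 fold change among the tested genes they ran from 3 for Chac1, 25 for Nupr1 and 37 for Atf3 to 292 for Sesn2, 320 for Atf5 and 1076 for Cebpg. Their median coefficient of variation between libraries was 3.46% in BACH1-KO and 7.71% in WT, against 4.47% in BACH1-KO and 5.91% in WT for all tested genes.

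**Figure D2:**
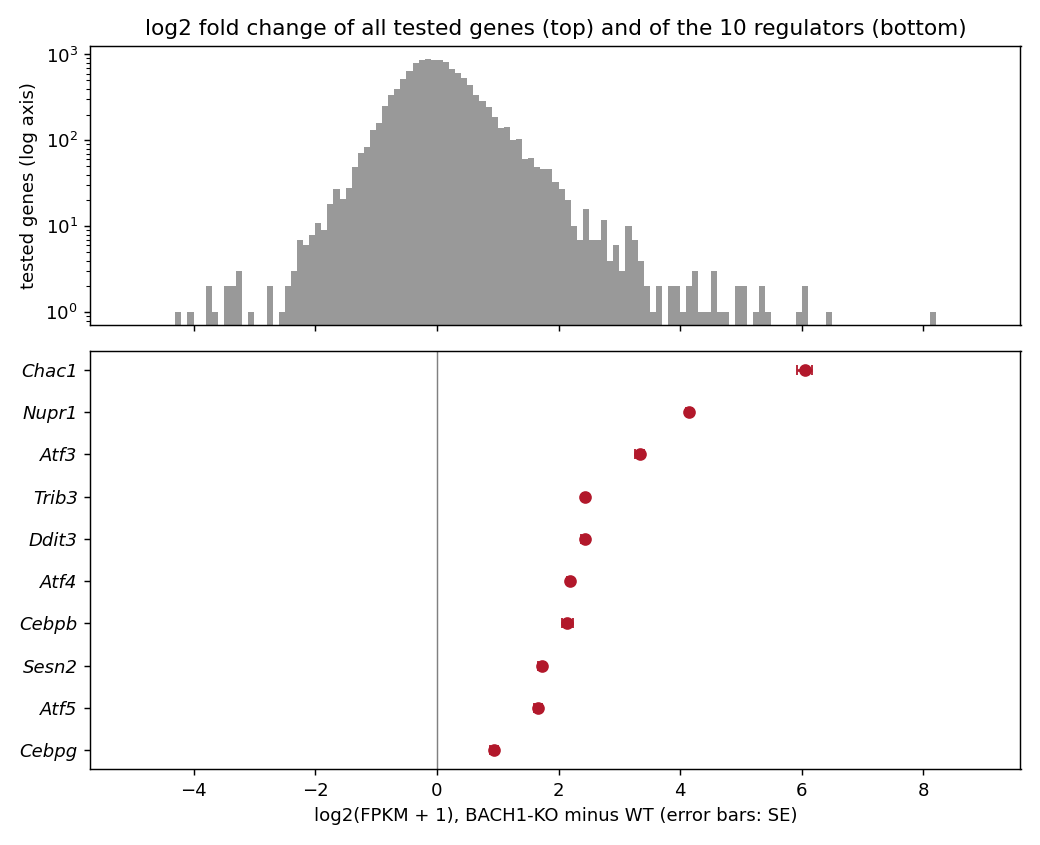
The upper panel counts all 12187 tested genes by log2 fold change (count on a log axis), and the lower panel gives the log2 fold change of each regulator with its SE, both from log2(FPKM + 1), BACH1-KO less WT. The regulators run from 0.93 for Cebpg to 6.05 for Chac1, to the right of the bulk of genes centred on -0.01.

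The order of levels was not the same in the genotypes. In BACH1-KO cells it was Atf4, Nupr1, Chac1, Ddit3, Trib3, Sesn2, Atf5, Cebpg, Cebpb and Atf3, from 419 ± 11.7 down to 14.5 ± 0.956 FPKM (SD, n = 3). In WT cells it was Atf4, Ddit3, Nupr1, Sesn2, Cebpg, Trib3, Atf5, Cebpb, Chac1 and Atf3, from 91.7 ± 5.88 down to 0.543 ± 0.102 FPKM (SD, n = 3). Neighbours in these orders had separate library ranges except Atf5 with Cebpg and Cebpb with Atf3, both in BACH1-KO. Chac1 thus stood at position 3 in BACH1-KO and 9 in WT.

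The summed level of the 10 transcripts was 1194 ± 21.7 FPKM in BACH1-KO and 171 ± 8.73 FPKM in WT (SD, n = 3). That was 0.153% to 0.158% of all FPKM in the BACH1-KO libraries and 0.0204% to 0.0230% in the WT libraries. Atf4 made up 35.1% of the sum in BACH1-KO and 53.5% in WT, and the other 9 genes summed to 775 ± 13.7 FPKM in BACH1-KO and 79.7 ± 2.90 FPKM in WT.

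Set against Atf4 in the same library, the genes fell into those with a higher and those with a lower ratio in BACH1-KO. Chac1 reached 0.409 ± 0.0169 of the Atf4 level in BACH1-KO and 0.0177 ± 0.00483 in WT, and Nupr1 0.756 ± 0.0159 in BACH1-KO and 0.186 ± 0.0189 in WT (SD, n = 3). Atf3 reached 0.0347 of the Atf4 level in BACH1-KO and 0.00593 in WT. Ddit3, Trib3 and Cebpb had ratios less far above those in WT. Ddit3 stood at 0.317 ± 0.0159 of the Atf4 level in BACH1-KO and 0.260 ± 0.00801 in WT, and Trib3 at 0.110 ± 0.00364 in BACH1-KO and 0.0841 ± 0.00271 in WT. Sesn2, Atf5 and Cebpg had lower ratios in BACH1-KO, with Cebpg at 0.0445 ± 0.00242 in BACH1-KO and 0.102 ± 0.0137 in WT. The shift was smaller for Sesn2, at 0.0969 in BACH1-KO and 0.127 in WT, and for Atf5, at 0.0458 in BACH1-KO and 0.0585 in WT. These ratios come from the same libraries as the levels and are no separate evidence.

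**Figure D3:**
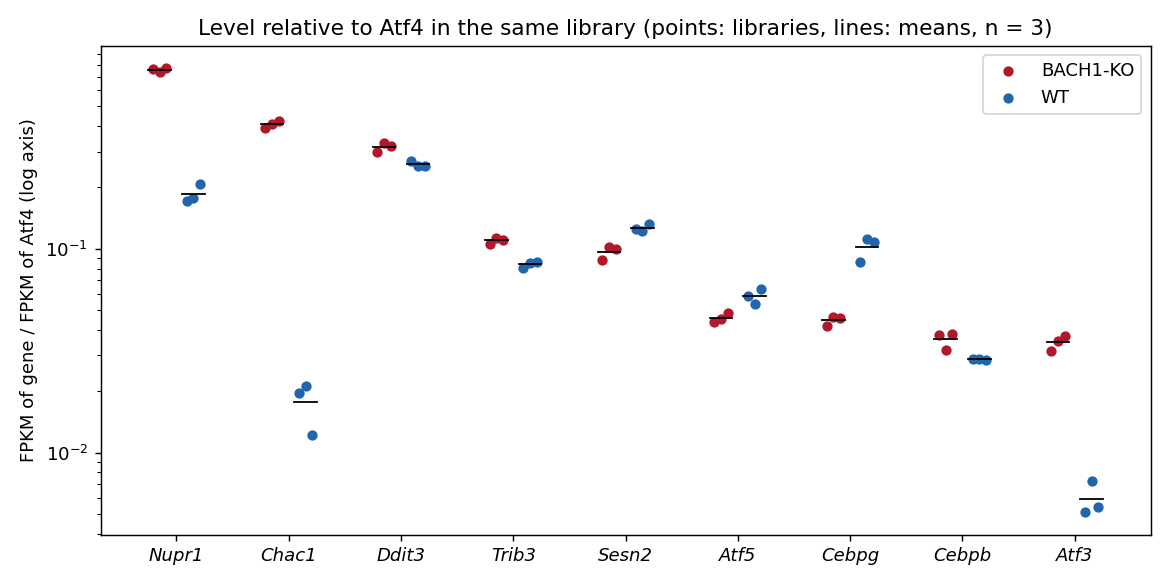
FPKM of each regulator divided by that of Atf4 in the same library (log axis), with BACH1-KO points left of WT points for each gene and lines at the means (n = 3). Chac1 (0.409 in BACH1-KO, 0.0177 in WT), Nupr1 and Atf3 have the widest gaps upward, and Sesn2, Atf5 and Cebpg lie lower in BACH1-KO than in WT.

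Upstream of ATF4, none of the 4 eIF2 kinase transcripts passed the test with a higher level in BACH1-KO. Eif2ak1, the heme-regulated kinase HRI, fell to 15.9 ± 0.728 FPKM in BACH1-KO, against 20.6 ± 2.00 FPKM in WT (log2 fold change -0.35, limma adjusted p = 0.00192). Eif2ak2, the RNA-activated kinase PKR, fell to 3.48 ± 0.111 FPKM in BACH1-KO, against 6.72 ± 1.10 FPKM in WT (log2 fold change -0.78, limma adjusted p = 1.43e-04). Eif2ak3, the endoplasmic reticulum kinase PERK, was at 6.28 ± 0.0565 FPKM in BACH1-KO and 6.28 ± 0.349 FPKM in WT, with a log2 fold change of 0.001 (SE 0.06). Eif2ak4, the amino acid sensor GCN2, was at 5.64 ± 0.250 FPKM in BACH1-KO and 6.49 ± 0.389 FPKM in WT (limma adjusted p = 0.0342). That last call was lost without WT library 1 or 3 or without BACH1-KO library 2 or 3, at adjusted p values of 0.0528 to 0.112. Transcript levels do not show kinase activity.

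Both regulatory subunits of the eIF2 phosphatase rose. Ppp1r15a (GADD34), the stress-induced subunit, reached 35.995 ± 1.03 FPKM in BACH1-KO, against 10.7 ± 0.894 FPKM in WT (log2 fold change 1.66, limma adjusted p = 1.49e-07). Ppp1r15b, the constitutive subunit, reached 26.2 ± 0.233 FPKM in BACH1-KO, against 15.4 ± 0.810 FPKM in WT (log2 fold change 0.74, limma adjusted p = 2.30e-06). The list of kinase, phosphatase and eIF2 genes held 21 tested members, of which 7 rose, 10 fell and 4 did not pass, with a median log2 fold change of -0.02. Over all tested genes 37.3% rose and 39.7% fell, and these shares are the background for this and every later list count. Impact, an inhibitor of GCN2 activation, rose to 85.8 ± 1.30 FPKM, against 50.7 ± 1.08 FPKM in WT. The eIF2 gamma subunit gene Eif2s3x fell to 42.9 ± 0.104 FPKM, against 64.9 ± 0.150 FPKM in WT.

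Among 12 factors of reinitiation and ATF4 turnover, 4 rose, 6 fell and 2 did not pass (median log2 fold change -0.16). Of all tested genes 37.3% rose and 39.7% fell. Egln3, a prolyl hydroxylase reported to lower ATF4 protein, fell to 13.0 ± 0.442 FPKM in BACH1-KO, against 71.1 ± 0.993 FPKM in WT (log2 fold change -2.36, limma adjusted p = 7.00e-09). Its relative Egln1 fell to 15.1 ± 0.472 FPKM, against 31.0 ± 1.17 FPKM in WT. Both are also known targets of hypoxia-inducible factors, whose targets were not examined as a set, and a part of hypoxia was not tested.

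Downstream, most genes that ATF4 is known to activate were higher. Among amino acid and one-carbon genes, 23 of 24 were tested, and 19 rose while 2 fell and 2 did not pass (median log2 fold change 0.86). Slc6a9, which rose, passed the filter through its BACH1-KO level alone. Pck2, the mitochondrial PEP carboxykinase, reached 45.0 ± 0.780 FPKM in BACH1-KO, against 4.80 ± 0.484 FPKM in WT, and the neutral amino acid transporter Slc1a4 47.9 ± 1.86 FPKM, against 5.95 ± 0.270 FPKM in WT. Cth, which makes cysteine from cystathionine, reached 226 ± 6.32 FPKM, against 58.2 ± 0.968 FPKM in WT (log2 fold change 1.94, limma adjusted p = 7.38e-09). Asparagine synthetase, Asns, named after its values were seen, rose to 456 ± 1.07 FPKM, against 208 ± 10.7 FPKM in WT. The cystine transporter gene Slc7a11 missed the filter, at 0.948 ± 0.0767 FPKM in BACH1-KO and 0.169 ± 0.0663 FPKM in WT. The 17 other ATF4 effector genes included 11 that rose, 4 that fell and 2 that did not pass (median 0.80). Fgf21, Vldlr and Cdsn, which rose, passed the filter through their BACH1-KO level alone. Herpud1, of endoplasmic reticulum degradation, reached 72.3 ± 2.29 FPKM, against 9.70 ± 1.32 FPKM in WT, and Stc2, a secreted glycoprotein gene, 52.8 ± 1.97 FPKM, against 7.26 ± 0.793 FPKM in WT. The 4 that fell were Ndrg1, Jmjd6, Map1lc3b and Xpot, named after their values were seen. Ndrg1, also a hypoxia target, fell to 21.3 ± 0.314 FPKM, against 56.1 ± 6.43 FPKM in WT. In the same list Ddit4 rose to 320 ± 2.47 FPKM, against 124 ± 16.3 FPKM in WT, and Vegfa did not pass.

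The C/EBP-ATF core of the printed promoters was also searched in the windows of these genes. It lay in 6 of 19 amino acid and one-carbon genes with a window (Asns, Pycr1, Pck2, Got1, Slc7a11 and Slc1a4) and in 3 of 13 other effector genes (Fgf21, Vldlr and Herpud1). Of 249 tested genes outside the 10 with the core, 45.8% rose and 18.1% rose to at least 2 times the WT mean. Of 9518 tested genes with a window and no core, 37.5% rose and 11% did so by that much. The 249 still include the tested effector genes just named and genes of other lists here, which were written with earlier results of these data known. A window was at hand for 80.2% of tested genes, and the difference between genes with and without the core was not tested.

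Known CHOP targets outside the 10 regulators had a median log2 fold change of 0.36, against 2.43 for Ddit3, itself chosen by its difference. The regulators were left out of every list, so any of them that CHOP also activates is not counted here. Of 6 tested, 5 rose and 1 fell. Apart from Ppp1r15a, the death receptor gene Tnfrsf10b rose to 10.5 ± 0.140 FPKM, against 8.21 ± 0.825 FPKM in WT. Ero1l, an oxidase of the endoplasmic reticulum, fell to 35.1 ± 0.607 FPKM, against 64.6 ± 2.00 FPKM in WT (log2 fold change -0.86, limma adjusted p = 2.95e-07).

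Most genes of the other stress arms were lower in BACH1-KO. Of 17 genes of the XBP1 and ATF6 arms, 2 rose, 13 fell and 2 did not pass (median log2 fold change -0.23), and the 2 that rose were Xbp1 and Dnajb9. Pdia6, a disulfide isomerase gene, fell to 195 ± 1.52 FPKM in BACH1-KO, against 343 ± 10.8 FPKM in WT. Of 10 genes of the mitochondrial unfolded protein response, to which Atf5 is linked, 2 rose, 7 fell and 1 did not pass (median -0.43). Lonp1, a matrix protease, fell to 39.5 ± 0.509 FPKM, against 87.0 ± 4.07 FPKM in WT, and the chaperonin gene Hspd1 to 301 ± 2.40 FPKM, against 602 ± 34.3 FPKM in WT.

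The list around the GATOR complexes and mTORC1, on which Sesn2 acts, also held Rag GTPases and other mTORC1 regulators, and was split. Of 23 tested, 11 rose, 9 fell and 3 did not pass, with a median log2 fold change of 0.04. Over all tested genes 37.3% rose and 39.7% fell. Of the complex subunits, Mios and Nprl3 rose, and Sec13 and Mlst8 did not pass. The other subunits, Wdr24, Wdr59, Seh1l, Nprl2, Depdc5, Mtor and Rptor, fell. Ddit4 and Eif4ebp1, which rose, were also counted among the other ATF4 effector genes. Rragb, a Rag GTPase gene, rose to 31.5 ± 0.733 FPKM in BACH1-KO, against 9.25 ± 0.745 FPKM in WT, and Eif4ebp1, the translation repressor that mTORC1 inactivates, to 826 ± 19.0 FPKM, against 475 ± 0.734 FPKM in WT. Wdr59, a GATOR2 subunit gene, fell to 9.49 ± 0.405 FPKM, against 17.4 ± 0.499 FPKM in WT.

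**Figure D4:**
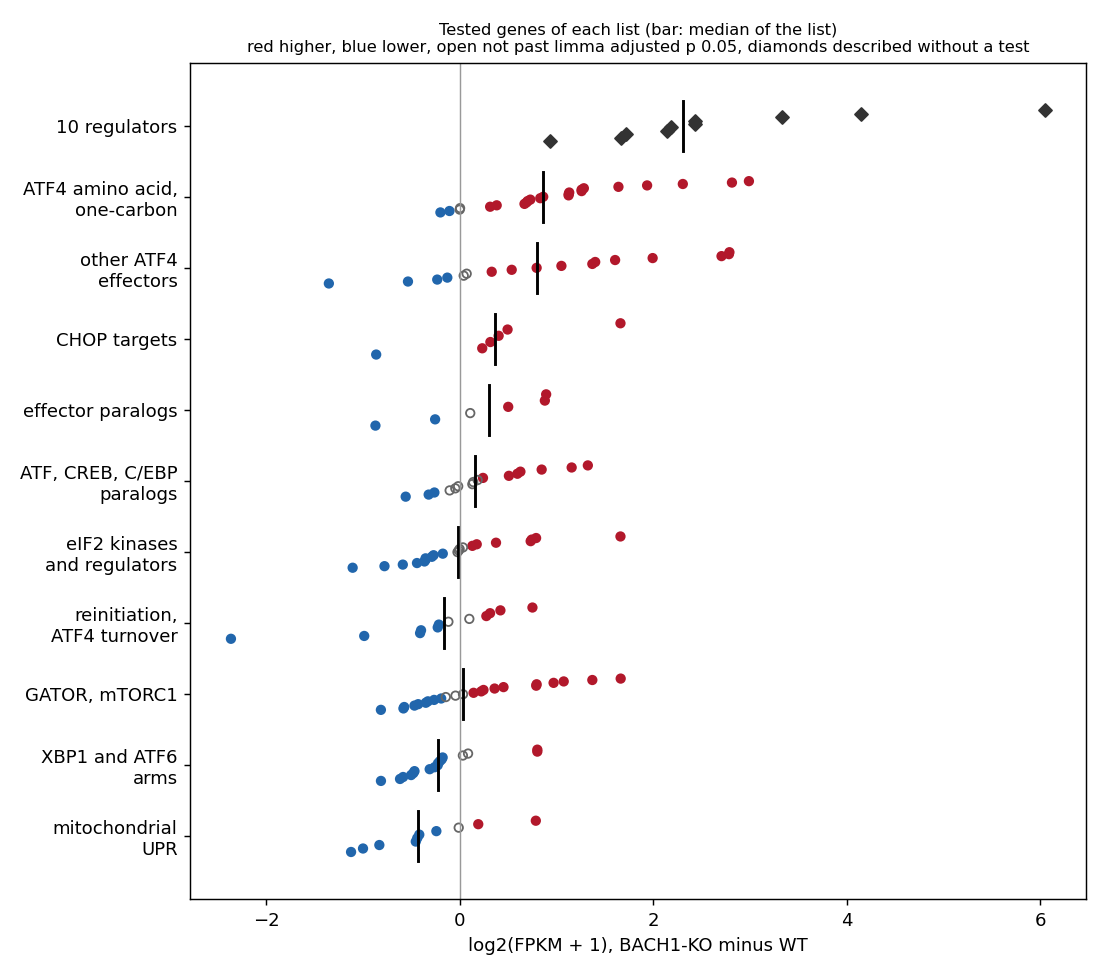
Log2 fold change from log2(FPKM + 1), BACH1-KO less WT, of each tested gene in the 10 regulators and 10 pathway lists, with a bar at each median. Red genes rose, blue genes fell and open circles did not pass limma's adjusted p of 0.05, while the regulators are diamonds without a test. The medians run from 2.31 for the regulators and 0.86 for amino acid genes to -0.23 for the XBP1 and ATF6 arms and -0.43 for the mitochondrial list.

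Close relatives of the 10 genes ranged from lower to higher in BACH1-KO, some with differences above that of Cebpg, the smallest-changing regulator. No tested relative reached the log2 fold change of Atf5, the next smallest, at 1.67. Among 16 tested ATF, CREB and C/EBP paralogs, 7 rose, 3 fell and 6 did not pass (median log2 fold change 0.16), where 37.3% of all tested genes rose and 39.7% fell. Cebpd and Batf, which rose, passed the filter through their BACH1-KO level alone. The paralogs with the smallest adjusted p were Jdp2, a repressor of AP-1 sites, at 14.3 ± 0.963 FPKM in BACH1-KO and 5.09 ± 0.159 FPKM in WT, and Creb3, at 17.9 ± 1.31 FPKM in BACH1-KO and 7.47 ± 0.526 FPKM in WT. Their log2 fold changes, 1.33 for Jdp2 and 1.16 for Creb3, were above the 0.93 of Cebpg, and the difference between relatives and regulators was not tested. Chac2, the Chac1 paralog, rose to 27.0 ± 1.15 FPKM, against 14.2 ± 0.503 FPKM in WT, while Sesn1, a p53 target, fell to 16.2 ± 0.945 FPKM, against 30.3 ± 1.42 FPKM in WT. Trib1 was at 2.10 ± 0.0537 FPKM in BACH1-KO and 1.20 ± 0.311 FPKM in WT, and its call was lost under quantile normalization (limma adjusted p = 0.0712). Nupr1l, the Nupr1 paralog, stood at 2.23 ± 1.47 FPKM in BACH1-KO and 0.668 ± 0.438 FPKM in WT, and its call (limma adjusted p = 0.0306) was lost without WT library 2, at 0.100, or without BACH1-KO library 1, at 0.0761. It was also lost with no filter on low values, at 0.0585, and under quantile normalization, at 0.177, and the gene passed the filter through its BACH1-KO level alone.

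The genes whose centred profile over the 6 libraries lay nearest to that of Atf4 were Tbcc, Cand2, Aadac, Arl14ep and Hhip, at distances of 0.143 to 0.161 on the log2(FPKM + 1) scale. Arl14ep had 53.3, 54.9 and 53.9 FPKM in BACH1-KO libraries, against 12.2, 11.9 and 11.5 FPKM in WT libraries, and Aadac was listed at 0 in all WT libraries. Of the other regulators Cebpb was nearest, at 0.199 and rank 13, and Chac1 farthest, at 4.75 and rank 12091. With 2 groups so far apart, this measure reflects mainly the size of the difference on the log2(FPKM + 1) scale. The added 1 FPKM shapes that size at low WT levels, as for Aadac, Hhip (WT mean 0.126 FPKM) and Cand2 (WT mean 1.08 FPKM). The ratio of means was 31.9 for Hhip, 7.55 for Cand2, 5.19 for Tbcc and 4.56 for Arl14ep, against 4.57 for Atf4. Aadac and Hhip passed the filter through their BACH1-KO level alone.

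Library-wide values that moved with the genotype stand beside these results. All 20 hepatocyte markers were higher in BACH1-KO, with a sum of 1028 to 1068 FPKM in BACH1-KO libraries and 20.2 to 27.4 FPKM in WT libraries. Alb averaged 468 ± 5.91 FPKM in BACH1-KO and 0.721 ± 0.658 FPKM in WT, and 0 of the 20 were at 0 across all BACH1-KO libraries, while Cyp3a11 was listed at 0 in every WT library. Several of the regulators, such as Cebpb, are also expressed in liver, and the part of these transcripts in the results was not tested. The 8 embryonic stem cell markers were present in both genotypes, with sums of 6733 to 6988 FPKM in BACH1-KO and 10477 to 11250 FPKM in WT. In BACH1-KO 7 of them were lower and 1 higher, where 39.7% of all tested genes were lower and 37.3% higher. The 9 fibroblast feeder markers summed to 66.8 to 69.8 FPKM in BACH1-KO and 199 to 219 FPKM in WT, sums made up mostly of Vim, at 54.9 ± 1.35 FPKM in BACH1-KO and 186 ± 9.31 FPKM in WT. Of these 9 markers, 4 (Vim, Thy1, Pdgfrb and Col1a1) had every BACH1-KO library below every WT library. The other 5 had every BACH1-KO library above every WT library at means under 1 FPKM, with Dcn the highest at 0.764 FPKM in BACH1-KO and 0.0664 FPKM in WT. Col3a1 and Lum were listed at 0 in every WT library. Libraries of the genotypes did not overlap for 79.3% of all tested genes. The table listed 17276 to 17455 symbols above 0 in BACH1-KO libraries, against 16047 to 16159 in WT libraries. Library profiles correlated across genes at 0.991 to 0.994 (Pearson, log2(FPKM + 1)) within a genotype and 0.929 to 0.935 between genotypes.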

How the data were processed

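RNA sequencing of 3 BACH1-KO and 3 WT libraries was deposited by the authors as 1 table of FPKM per gene symbol, made with Cufflinks on mm10 per the submitters' processing notes; aligner, annotation and version numbers: not given in the sources used here. Another 23 rows without a symbol (0.0987% of summed FPKM) were left out. Column names give the genotype only, so columns are replicates without pairing. No counts were used and absolute depth is unknown; the commonest ratio of values under 0.1 FPKM put relative depths at 1 to 1.18 of the first WT column. Log2(FPKM + 1) of genes averaging 1 FPKM or more was fitted with limma 3.58.1 in R 4.3.3 (mean-variance trend, two-sided, Benjamini-Hochberg, checked on simulated data). The simulation changed few genes and drew independent noise, unlike these data, so it does not give the error rate here. "Rose" and "fell" mean an adjusted p under 0.05. FPKM is a share of the library, so large rises lower other genes' values. The genes, lists and motifs were chosen with earlier results of these data known. Named are the 10 regulators, the eIF2 kinases and phosphatase subunits, up to 4 genes per list with the smallest adjusted p and separate libraries, and the 5 nearest to Atf4. Any further gene was named with its values in view. List symbols were matched through RefSeq synonyms.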

Additional observations from a re-analysis of the deposited data

How the results depend on the processing

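All 120 log2 fold changes of the 10 regulators under 12 alternatives per gene were above 0, and 111 moved by less than 1 SD between libraries. The way the genes were chosen already favoured that sign. Changing the filter on low values or leaving out the mean-variance trend cannot move a log2 fold change. Values under those settings are thus the same by construction. The median of the 10 regulators was 2.47 with a pseudocount of 0.1 FPKM, and 2.26 to 2.34 when any 1 library was left out. Across all genes 8798 to 9344 passed without any 1 library, and with a filter at 5 FPKM 2942 were higher and 3862 lower, among fewer genes tested. With no filter 11655 passed, 6580 higher and 5075 lower, so the higher calls outnumbered the lower ones, unlike the 4542 higher and 4836 lower at 1 FPKM. With a 1.5-fold change as the null, calls came to 2319 over all genes (1325 higher, 994 lower), and of the pathway list genes 47 passed, 36 higher and 11 lower, where the plain test gave 125, 68 higher and 57 lower. Of 60 named genes outside the regulators, 0 reversed and 26 of 772 alternative values lost the call, 17 of them against the 1.5-fold threshold. No paired analysis was possible because the columns numbered 1 to 3 cannot be tied to single sample titles. The title endings that recur across genotypes thus cannot be assigned to columns. Absolute depth is unknown, so no counting error could be given for low levels such as those of Atf3 and Chac1 in WT.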
